A study of Homo sapiens with 6 samples.

Results

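Transcripts of 34 genes of intraflagellar transport, the BBSome and the transition zone of the primary cilium were found by symbol in the deposited count table, which lists 30493 genes. They comprise 6 IFT-A subunits, the IFT-A adaptor TULP3, 11 IFT-B subunits, 2 dynein 2 chains, 7 BBSome subunits, the BBSome recruiter ARL6, the chaperonin-like assembly factors BBS10 and BBS12, and 4 transition zone genes. All 34 had a row and enough counts to be tested. The libraries came from A549, an established human lung adenocarcinoma cell line: 3 carried a knockdown of STAU1, a protein that binds double-stranded RNA and acts in the localisation and decay of mRNAs, and 3 were controls. The labels give the controls as a plasmid control while the knockdown titles carry the prefix si, give neither the reagent's sequence nor the time after its delivery, and do not state that replicates were separate cultures. The p-values therefore rest on the spread among these 6 libraries alone, part or all of which could be technical. The files hold RNA only, with no measure of cilia.

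The primary cilium is a microtubule-based antenna that grows from the mother centriole of many resting cells, airway and lung epithelial cells included. Because the cilium makes no protein of its own, trains built from large complexes carry cargo along it: intraflagellar transport complex B (IFT-B) with kinesin-2 outward to the tip, and complex A (IFT-A) with dynein 2 back to the base. The BBSome, named after Bardet-Biedl syndrome, rides on these trains and sorts membrane receptors, and the transition zone at the base of the cilium gates what enters and leaves. In dividing cells the cilium is taken down before mitosis.

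Depth was similar, at 30354219 to 35431441 counts in knockdown libraries and 31458569 to 32832268 in control libraries. STAU1 had 16, 15.7 and 14.6 CPM (counts relative to library size, scaled by the TMM method) in knockdown libraries against 120, 125 and 117 CPM in controls, a 7.83-fold lower level. All 7 epithelial and A549 markers were detected, and they moved in both directions (SD, n = 3 each). The keratin KRT8 fell to 3328 ± 50.9 CPM in knockdown libraries, against 4371 ± 60.9 CPM in controls, and KRT18 and AKR1B10 also fell. The adhesion gene CDH1 rose to 122 ± 3.28 CPM in knockdown libraries, against 86.2 ± 2.06 CPM in controls, EPCAM and ALDH1A1 also rose, and KRT19 was not called. In such bulk samples, fewer cells of a type and less RNA per cell cannot be told apart. Of 14 markers of multiciliated airway cells, 11 had a row, and their summed level was 20.9 to 23.0 CPM in knockdown and 19.5 to 21.2 CPM in control libraries. The master factor FOXJ1 was at 0.311 ± 0.0262 CPM in knockdown and 0.289 ± 0.0631 CPM in control libraries, and the axonemal genes DNAI1 and CFAP126 had at most 4 counts in any library. The radial spoke gene RSPH1 rose to 1.36 ± 0.0943 CPM in knockdown libraries, against 0.708 ± 0.200 CPM in controls, and PIFO rose to 1.17 ± 0.0625 CPM against 0.557 ± 0.192 CPM, both at low level. Other marker sums were also low: 10.1 to 10.9 CPM in knockdown against 6.51 to 6.67 CPM in control libraries for 4 fibroblast markers, nearly all of it LUM; 1.74 to 2.56 against 1.10 to 1.31 CPM for 4 endothelial markers; and 15.8 to 18.2 against 12.9 to 14.3 CPM for 3 immune markers, nearly all of it CD14. Their part in the results was not tested.

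Many ciliary genes are regulated by RFX transcription factors, which bind the X-box, an inverted repeat whose arms read GTTGCC. Promoters of 250 bases before to 50 bases after the start were found for 30 of the 34 genes in RefSeq on GRCh38.p14 (all but IFT22, BBS9, WDR35 and TMEM67). A GTTGCC arm on either strand was present in 14 of these 30 promoters (46.7%), against 12.2% of all 27305 promoters and 12.8% of the 11490 promoters of tested genes. A loose full X-box, GTNNCC followed by NNNGNAAC with no gap, on either strand, was present in 3 of the 30, against 2.293% of all promoters; in ARL6 it overlaps the arm. The windows below are given in gene orientation with the match in capitals. First come the 3 full matches, then matches to the arm from members that rose, fell or were not called. The motif can thus be set beside the direction of change. In the IFT122 window another arm-like stretch, ggtaac, follows the match at a wider spacing than the full motif searched allows.

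ARL6: aagctcctGTTGCCAAGGGAACggtgcctg
IFT57: ggagtctaGTTTCCCTGGTGACggattgtc
B9D1: ctgggactGTTACCTTGGCTACtggctccc
IFT27: ggagcttttggcGGCAACcaatcgagggtc
DYNC2LI1: cgtcgctcccatGGCAACccagaaggcctc
IFT122: ccgcgcatgtacGTTGCCaggggtaacgca
TULP3: gtgtggaacgcgGTTGCCaggaggcgggac
IFT81: ggcctagcaaccGTTGCCaaggagctcgac
TTC8: cagccgtcgcggGTTGCCgggcagagtcgg

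In the same order these windows lie at chr3:97764726-97764755 (plus strand), chr3:108222433-108222462 (minus), chr17:19378085-19378114 (minus), chr22:36776143-36776172 (minus), chr2:43774019-43774048 (plus), chr3:129440200-129440229 (plus), chr12:2890839-2890868 (plus), chr12:110124345-110124374 (plus) and chr14:88824605-88824634 (plus). The matches of ARL6, IFT57, IFT27, DYNC2LI1, IFT122, TULP3, IFT81 and TTC8 begin between 41 bases before the start and the start itself, and that of B9D1 begins 193 bases before it. Arms not shown were more spread out. In bases from the start they begin at -237 (IFT74), -221 (BBS10), -196 (IFT46), -51 and 15 (DYNC2H1), -14 (BBS5), 1 (BBS1) and 16 (IFT88). These are letter matches in the reference genome, not measured binding.

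Called rises lay in some but not all subunits of IFT-A and IFT-B, in both dynein 2 chains, in 3 transition zone genes and, in the BBSome, in BBS2 alone, while TULP3, BBS7 and ARL6 fell. Among the 34 transcripts 17 rose, 3 fell and 14 were not called at an adjusted p under 0.05 in edgeR's quasi-likelihood test; among all 17089 genes tested, 44.2% were called, 22.2% higher and 22% lower. With total-count scaling the calls over all genes split into 5473 higher and 2407 lower, against 3801 and 3759 here. On log2(FPKM + 1) they split into 4663 and 1353, but of 24516 genes tested rather than 17089. The median log2 fold change, knockdown minus control, was 0.15 over the 34 genes, beside 0.00 over all genes tested, and the changes ran from -0.33 for ARL6 to 0.49 for IFT27. Knockdown libraries lay above every control library for 16 of the 34 and below every control for 4, where 25.8% and 25.5% of all genes tested did so, 51.4% in all. The summed level of the 34 transcripts was 673, 676 and 685 CPM in knockdown libraries against 617, 625 and 628 CPM in controls.

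**Figure D1:**
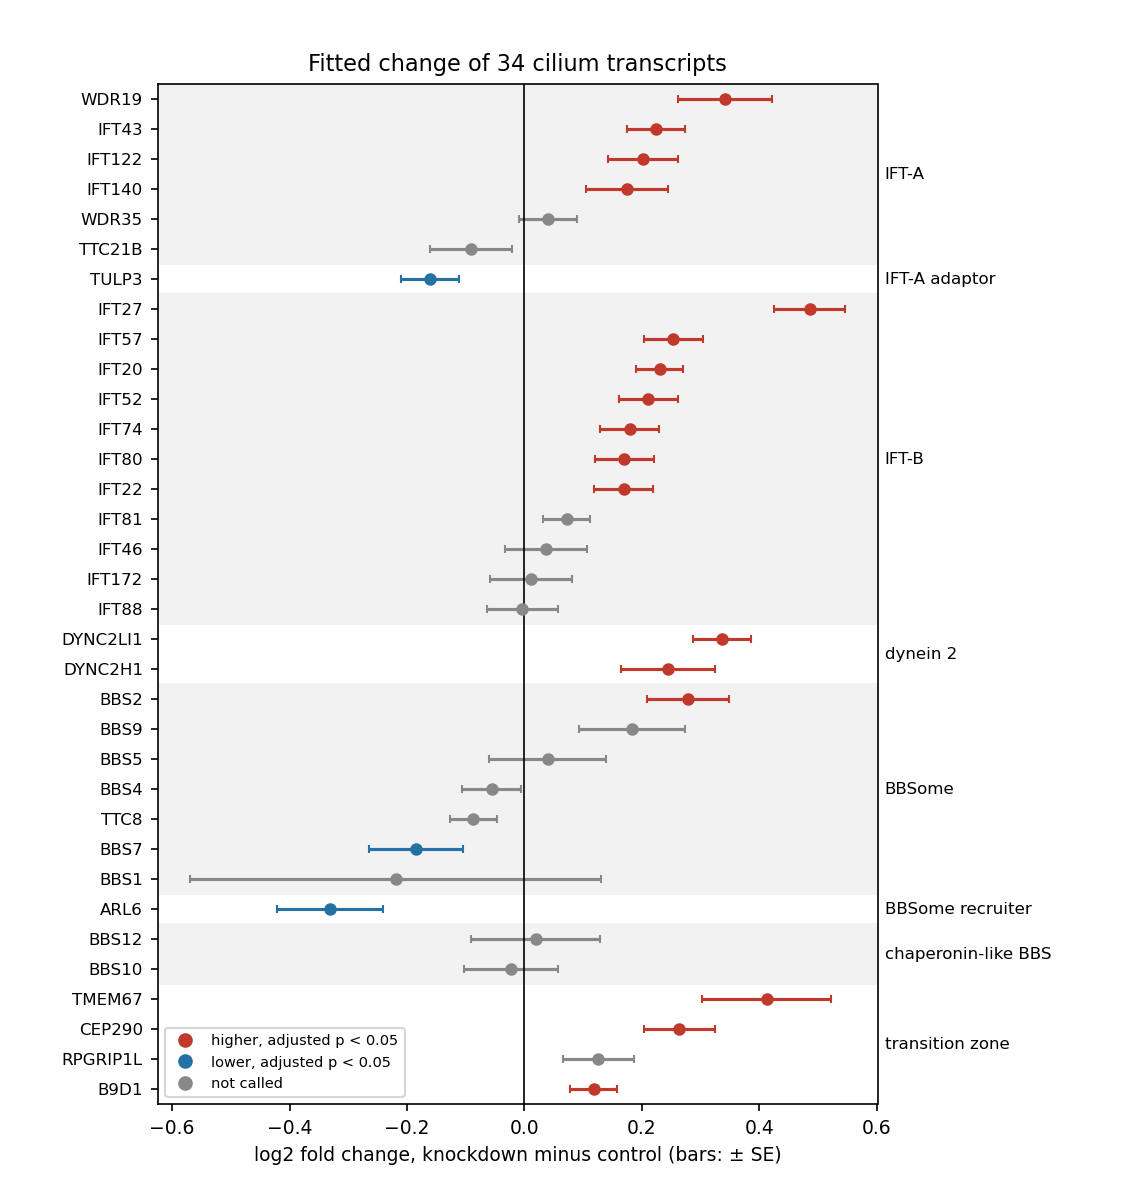
Fitted log2 fold change (knockdown minus control, x axis) of the 34 transcripts with its standard error, ordered by complex (y axis) and coloured by the call of edgeR's quasi-likelihood test at an adjusted p under 0.05. The changes run from -0.33 for ARL6 to 0.49 for IFT27, with the called rises in IFT-A, IFT-B, dynein 2, the transition zone and, in the BBSome, BBS2.

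By complex, 4 of 6 IFT-A subunits rose (median log2 fold change 0.19), 7 of 11 IFT-B subunits (median 0.17), both dynein 2 chains, and 3 of 4 transition zone genes (median 0.20). Beside these, 22.2% of all genes tested were called higher and 22% lower. In the BBSome 1 of 7 rose, 1 fell and 5 were not called, with a median of -0.06, though it was 0.02 when scaled by total counts and 0.05 with FPKM values. The BBSome median was 0.00 under a filter of 1 CPM in 3 libraries, which removed BBS1, a row of few counts. Its sign thus depended on the scaling, and its size also on that row. Taken library by library, the median of the log2 ratio to the control mean was 0.20, 0.13 and 0.21 for IFT-A in knockdown replicates 1 to 3, 0.14, 0.18 and 0.13 for IFT-B, 0.18, 0.09 and 0.21 for the transition zone, and -0.10, -0.02 and -0.03 for the BBSome. Control libraries lay between -0.04 and 0.03 in all 4 complexes. The medians of IFT-A, IFT-B and the transition zone lay above every control median in each knockdown library, and those of the BBSome did so in none. The difference between complexes was not tested, since subunits are not replicates of a condition.

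**Figure D2:**
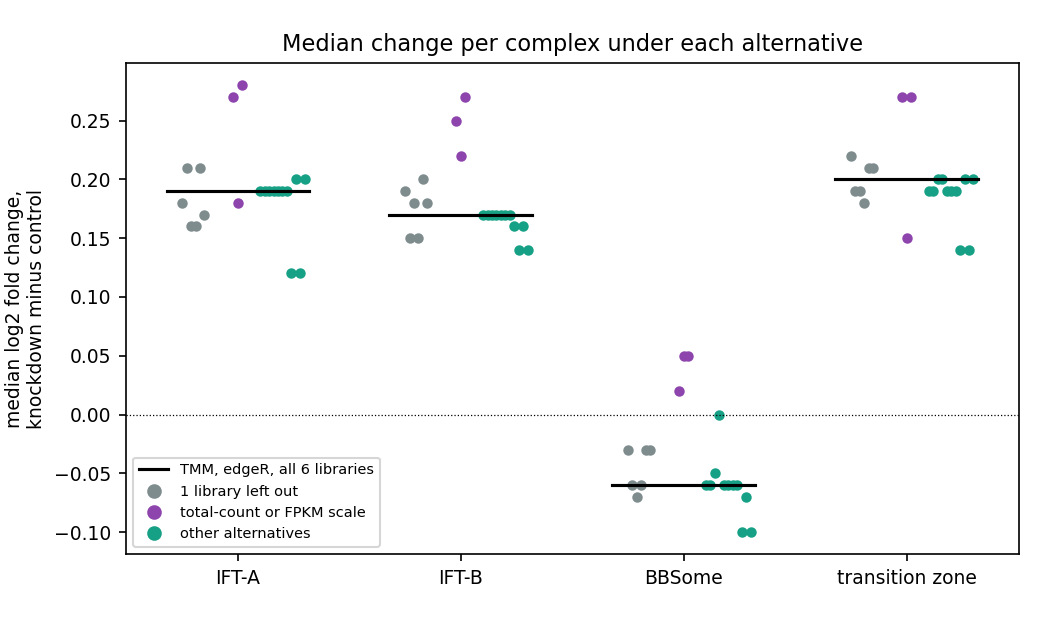
Median log2 fold change (knockdown minus control, y axis) of each complex (x axis) with TMM scaling and all 6 libraries (line) and under the 20 alternatives (points). IFT-A, IFT-B and the transition zone run from 0.12 to 0.28, and the BBSome from -0.10 to 0.05, where total-count and FPKM scales put it above 0. The filter of 1 CPM, which removes BBS1, puts the BBSome at 0.00.

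IFT-A is built from 3 core subunits (IFT122, IFT140 and WDR19) and 3 peripheral ones (IFT43, TTC21B and WDR35). WDR19 (IFT144; ENSG00000157796.18, chr4:39182404-39285810, plus strand) had 12, 12.3 and 11 CPM in knockdown libraries against 9.99, 8.76 and 9.10 CPM in controls (log2 fold change 0.34, SE 0.08, edgeR's adjusted p = 0.00023). Every knockdown library was higher than every control. IFT43 had 25, 25 and 27.3 CPM in knockdown libraries against 22.8, 21.5 and 21.9 CPM in controls (0.22, SE 0.05), also without overlap. IFT122 had 18.7, 18.3 and 18.7 CPM in knockdown libraries against 14.8, 16.9 and 16.7 CPM in controls (0.20, SE 0.06). IFT140 had 15.1, 13.8 and 15.1 CPM in knockdown libraries against 13, 13.9 and 12.1 CPM in controls (0.17, SE 0.07, edgeR's adjusted p = 0.0326), and here the groups overlapped. So all 3 core subunits rose. Of the peripheral subunits WDR35, at 28.7 ± 2.23 CPM in knockdown and 27.9 ± 1.38 CPM in control libraries, had a log2 fold change of 0.04 (SE 0.05), and TTC21B (IFT139), at 12.9 ± 0.440 and 13.7 ± 0.670 CPM, had -0.09 (SE 0.07). The call of IFT122 ended without control replicate 1 (0.14, edgeR's adjusted p = 0.0769) and with a length offset (0.12, 0.108). That of IFT140 ended without knockdown replicate 1 or 3 or control replicate 1 or 3 (0.12 to 0.18), with DESeq2 (0.17) and with the length offset (0.11).

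TULP3, the adaptor that binds IFT-A and brings G protein-coupled receptors into the cilium (ENSG00000078246.17, chr12:2877223-2941140, plus strand), went the other way. It fell to 23.6, 23.3 and 24.1 CPM in knockdown libraries, against 27.0, 25.6 and 26.7 CPM in controls (log2 fold change -0.16, SE 0.05, edgeR's adjusted p = 0.0064), with no overlap. With total-count scaling its value was -0.08 (adjusted p = 0.165 in edgeR) and on the log2(FPKM + 1) scale -0.04 (0.463 in limma), so that call depended on the scaling.

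In IFT-B the largest rise of the 34 was that of IFT27, a small GTPase-like subunit that takes part in BBSome export from the cilium (ENSG00000100360.15, chr22:36758202-36776256, minus strand). It had 21.7, 20.3 and 22.3 CPM in knockdown libraries against 15.1, 16 and 14.9 CPM in controls, a 1.40-fold rise (log2 fold change 0.49, SE 0.06, edgeR's adjusted p = 1.6e-09). The groups stood well apart, the lowest knockdown library lying above the highest control. IFT57, which belongs to the peripheral IFT-B2 part that contacts kinesin-2, had 31.2, 29 and 30.5 CPM in knockdown libraries against 26.4, 24 and 25.6 CPM in controls (0.25, SE 0.05). IFT20, the subunit that also resides at the Golgi, had 39.5, 39.2 and 42.8 CPM in knockdown libraries against 34.5, 35.5 and 33.8 CPM in controls (0.23, SE 0.04). IFT52, a scaffold of the core IFT-B1 part, had 33.8, 35.5 and 36.4 CPM in knockdown libraries against 30.7, 31.5 and 29.2 CPM in controls (0.21, SE 0.05). In each of these 3 the groups did not overlap.

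The smaller IFT-B rises were in IFT74, IFT80 and IFT22. IFT74, which with IFT81 binds tubulin cargo, had 23.1, 23.8 and 22 CPM in knockdown libraries against 19.4, 21.1 and 20.3 CPM in controls (log2 fold change 0.18, SE 0.05). IFT80 had 27.5, 29.6 and 27.3 CPM in knockdown libraries against 23.0, 24.9 and 27.1 CPM in controls (0.17, SE 0.05), a narrow separation. IFT22, a GTPase-like core subunit, had 33.9, 34.3 and 38.5 CPM in knockdown libraries against 31.4, 33.2 and 30.5 CPM in controls (0.17, SE 0.05). The IFT80 call ended without knockdown replicate 2 (0.13, edgeR's adjusted p = 0.0568), without control replicate 1 (0.11, 0.114) and with the length offset (0.12, 0.0646), and that of IFT22 without knockdown replicate 3 (0.10, 0.0984).

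The other 4 IFT-B subunits were not called. IFT81, the tubulin-binding partner of IFT74, was at 49.0 ± 2.22 CPM in knockdown and 46.6 ± 1.41 CPM in control libraries (log2 fold change 0.07, SE 0.04), a value of 0.15 with total-count scaling, where it was called. IFT46, which carries outer dynein arms in Chlamydomonas, was at 0.04 (SE 0.07). IFT172, the subunit at the turnaround point of the train tip, was at 0.01 (approximate 95% interval -0.12 to 0.14). IFT88, the subunit lost in the polycystic kidney mouse, had 15.3, 15.4 and 15.4 CPM in knockdown libraries against 14.8, 14.9 and 16.5 CPM in controls, with an interval of -0.13 to 0.12. The core part had 4 of 7 subunits higher (median 0.17) and the peripheral part 3 of 4 (median 0.20), so calls lay in both parts. The share called higher over all genes tested was 22.2%.

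Both dynein 2 chains rose. DYNC2LI1, the light intermediate chain (ENSG00000138036.18, chr2:43774039-43810010, plus strand), had 27.1, 26.0 and 27.1 CPM in knockdown libraries against 21.6, 21.4 and 20.5 CPM in controls (log2 fold change 0.34, SE 0.05, edgeR's adjusted p = 2.7e-07). DYNC2H1, the motor heavy chain, had 9.66, 11 and 11.6 CPM in knockdown libraries against 8.80, 9.09 and 9.36 CPM in controls (0.25, SE 0.08, edgeR's adjusted p = 0.00979). Neither pair of groups overlapped. The DYNC2H1 call ended without knockdown replicate 3 (0.18, 0.0952), with DESeq2 (0.24, 0.0604), with the length offset (0.12, 0.222) and on the FPKM scales, where the change was 0.13 with a pseudocount of 1 and 0.30 with 0.1 (limma's adjusted p = 0.0895 and 0.0863); its annotated exons, at 15012 nt, are the longest of the 34.

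**Figure D3:**
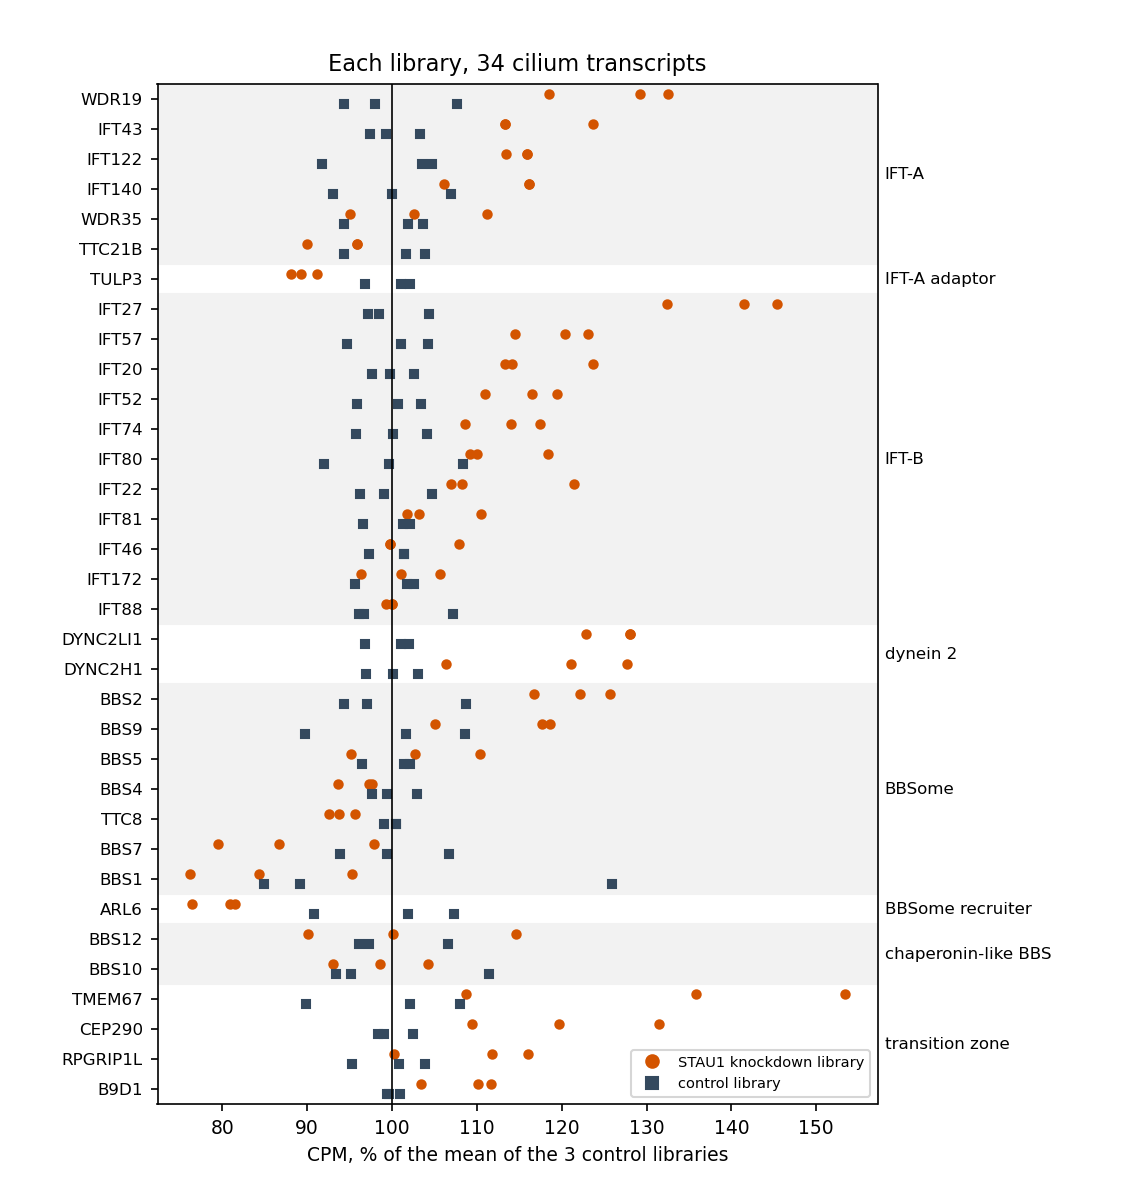
CPM of each library as a percentage of the mean of the 3 control libraries (x axis) for the 34 transcripts by complex (y axis); circles are knockdown libraries and squares control libraries. IFT27, WDR19 and DYNC2LI1 stand apart to the right of their controls, and ARL6 and TULP3 to the left.

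The BBSome did not move as a block. BBS2, which pairs with BBS7 and BBS9 in assembly (ENSG00000125124.14, chr16:56466836-56520283, minus strand), had 14, 13.6 and 13 CPM in knockdown libraries against 12.1, 10.8 and 10.5 CPM in controls (log2 fold change 0.28, SE 0.07, edgeR's adjusted p = 0.00107), with no overlap. Its partner BBS7 had 9.91, 12.2 and 10.8 CPM in knockdown libraries against 12.4, 11.7 and 13.3 CPM in controls (-0.18, SE 0.08, edgeR's adjusted p = 0.0442). The BBS7 groups overlapped, and its call was lost without knockdown replicate 1 or 3 or control replicate 1 or 3 (-0.19 to -0.12), with DESeq2 (-0.19, adjusted p = 0.152), with no filter on low counts (edgeR's adjusted p = 0.0614), with total-count scaling (-0.11) and on the FPKM scales (-0.05 and -0.08). BBS9, the other partner, was at 8.75 ± 0.579 CPM in knockdown and 7.69 ± 0.735 CPM in control libraries (0.18, SE 0.09, edgeR's adjusted p = 0.0881), and was called without knockdown replicate 3 (0.24, 0.0397) or control replicate 1 (0.25, 0.0452) and with total-count scaling (0.26). BBS4, which links the complex to pericentriolar material, was at 26.7 ± 0.634 CPM in knockdown and 27.8 ± 0.738 CPM in control libraries (-0.06, SE 0.05), TTC8 (BBS8) at 33.5 ± 0.558 and 35.6 ± 0.314 CPM (-0.09, SE 0.04), and BBS5 at 5.59 ± 0.417 and 5.44 ± 0.166 CPM (0.04, SE 0.10). BBS4 and TTC8 each had all 3 knockdown libraries below the controls, by small amounts that were not called; TTC8 was called with either offset, at -0.12 with both.

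BBS1, which binds the cytoplasmic tails of receptors, was nearly absent from its own row, with 13, 12 and 17 counts in knockdown libraries against 13, 19 and 14 counts in controls (log2 fold change -0.22, SE 0.35). In GENCODE 29 another gene on the same strand, ENSG00000256349.1, shares 53.9% of the annotated exon length of BBS1. That row, looked up after the BBS1 counts were seen, held 404, 405 and 473 counts in knockdown libraries against 305, 322 and 330 counts in controls and rose (0.33, SE 0.07, edgeR's adjusted p = 0.00011). How shared exons were counted is not stated in the labels or files, so how reads were divided between these genes is unknown. Exons of IFT80 are likewise shared over 27.2% of their length with ENSG00000248710.1, which also rose, to 11.1 CPM in knockdown libraries against 9.31 CPM in controls (0.25, SE 0.08). Those of BBS5 are shared over 21.9% with ENSG00000251569.1. That row held 3, 2 and 4 counts in knockdown libraries against 3, 7 and 2 counts in controls. On the opposite strand, neighbours overlap at most 12.4% of any member's exon length, and the reads of a gene and such a partner may not have been separated.

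ARL6 (BBS3), the GTPase that recruits the BBSome to membranes (ENSG00000113966.10, chr3:97764521-97801242, plus strand), had the largest fall of the 34. It held 7.58, 7.52 and 7.11 CPM in knockdown libraries against 8.44, 9.48 and 9.98 CPM in controls (log2 fold change -0.33, SE 0.09, edgeR's adjusted p = 0.00126). The groups did not overlap, although on the FPKM scales the change was -0.13 and -0.20 and not called (limma's adjusted p = 0.0892 and 0.0881). BBS10 and BBS12, chaperonin-like proteins that help the BBSome fold, were at -0.02 (SE 0.08) and 0.02 (SE 0.11), with approximate 95% intervals of -0.18 to 0.14 and -0.19 to 0.23.

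Of the transition zone transcripts 3 of 4 rose, where 22.2% of all genes tested were called higher. TMEM67 (meckelin), a receptor-like membrane protein of the gate, had 8.06, 6.45 and 9.10 CPM in knockdown libraries against 6.41, 5.33 and 6.06 CPM in controls (log2 fold change 0.41, SE 0.11, edgeR's adjusted p = 0.00139). The knockdown libraries were spread widely, and replicate 2 lay just above the highest control. CEP290, the large protein that spans microtubules and membrane (ENSG00000198707.17, chr12:88049014-88142216, minus strand), had 15.9, 19.1 and 17.4 CPM in knockdown libraries against 14.3, 14.9 and 14.4 CPM in controls (0.26, SE 0.06, edgeR's adjusted p = 0.00072), with no overlap. B9D1, a B9-domain protein of the same gate, had 35.8, 33.6 and 36.3 CPM in knockdown libraries against 32.3, 32.4 and 32.8 CPM in controls (0.12, SE 0.04, edgeR's adjusted p = 0.0253). RPGRIP1L, the scaffold of the zone, was at 17.9 ± 1.35 CPM in knockdown and 16.4 ± 0.703 CPM in control libraries (0.13, SE 0.06, edgeR's adjusted p = 0.0972). On the FPKM scales TMEM67 and CEP290 were not called (limma's adjusted p of 0.0655 to 0.0842), with changes of 0.17 and 0.13 on log2(FPKM + 1) and of 0.42 and 0.31 on log2(FPKM + 0.1). The B9D1 call ended with DESeq2 (0.12, 0.102) and without knockdown replicate 1 or 3 or control replicate 1 or 2 (0.09 to 0.11), and RPGRIP1L was called without knockdown replicate 2 (0.18, edgeR's adjusted p = 0.0198) and with total-count scaling (0.20).

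Levels were compared between genes only per length, as the authors' FPKM values. The median of the 34 was 2.30 FPKM in knockdown and 2.08 FPKM in control libraries, beside 2.36 and 2.15 FPKM over the genes tested that have an FPKM value. In IFT-B the levels ran from IFT52, at 12.2 FPKM in knockdown and 9.81 FPKM in control libraries, and IFT20, at 11.1 and 8.75 FPKM, to IFT172, at 0.723 and 0.663 FPKM. That is a 16.9-fold range in knockdown and a 14.8-fold range in control libraries among subunits of the same particle. In IFT-A the range ran from IFT43 (5.45 FPKM in knockdown, 4.32 FPKM in control libraries) to TTC21B (0.337 and 0.333 FPKM). TULP3, at 6.56 FPKM in knockdown and 6.79 FPKM in control libraries, lay above every IFT-A subunit. In dynein 2 the light intermediate chain was 8.06-fold above the heavy chain in knockdown and 7.59-fold above it in control libraries. In the BBSome BBS4 (5.67 and 5.46 FPKM) and TTC8 (4.72 and 4.65 FPKM) stood above BBS7 (1.96 and 2.07 FPKM), BBS5 (1.16 and 1.04 FPKM), BBS9 (0.857 and 0.697 FPKM) and BBS2 (0.710 and 0.540 FPKM). The gene length the authors divided by is not stated in the labels or files, so ranges between genes also carry that choice.

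**Figure D4:**
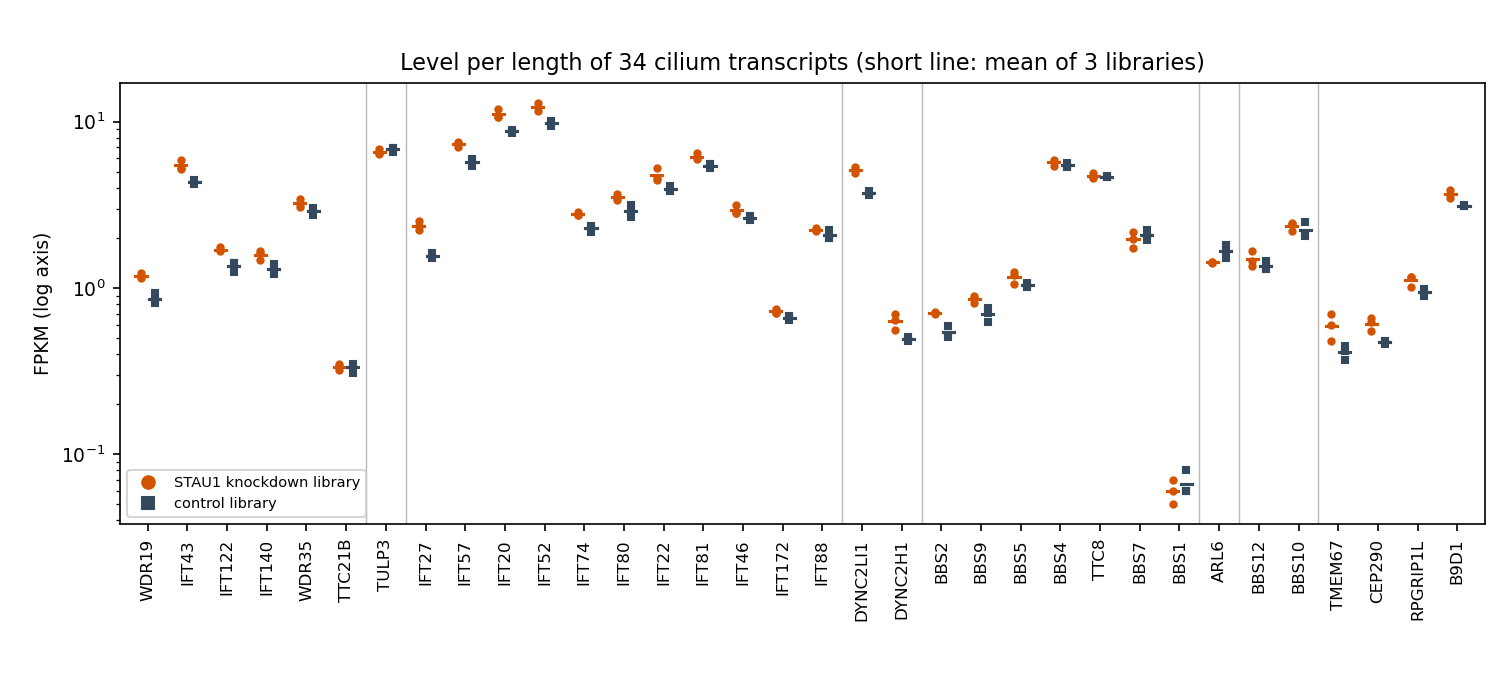
FPKM of each library (y axis, log scale) for the 34 transcripts (x axis) grouped by complex, with circles for knockdown and squares for control libraries and short lines for the mean of 3. Levels within IFT-B run from 0.723 to 12.2 FPKM in knockdown and from 0.663 to 9.81 FPKM in control libraries, and BBS1 lies lowest at 0.0600 and 0.0667 FPKM.

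Genes with and without the promoter motif were set side by side. Of the 14 genes with a GTTGCC arm 5 rose, 2 fell and 7 were not called (median log2 fold change 0.04), and of the 16 without it 10 rose, 1 fell and 5 were not called (median 0.17). Among all genes tested 22.2% were called higher and 22% lower. Over the tested genes with a promoter sequence the median was 0.00 with the arm (1468 genes) and 0.01 without it. The difference between members with and without the arm was not tested. Among the factors, RFX3 rose to 7.13 ± 0.179 CPM in knockdown libraries, against 5.50 ± 0.367 CPM in controls (0.37, SE 0.10, edgeR's adjusted p = 0.00128), RFX5, better known for MHC class II genes, fell to 53.8 ± 2.42 CPM against 62.0 ± 1.15 CPM (-0.21, SE 0.04), and the other 4 of 6 were not called. The 34 transcripts were also long, with a median annotated exon length of 6128 nt against 4366 nt over tested genes. Across genes the log2 fold change went with log2 exon length at Pearson's r = 0.27 over the 34 and r = 0.16 over 16890 tested genes, values that share the same 6 libraries. With a length offset 13 of the 34 were called higher and 4 lower, and of all 17089 genes tested 3333 higher and 4196 lower.

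Of 92 further cilium genes in 10 lists, 91 were tested: 20 rose and 19 fell, with 52 not called and a median of 0.03 on the log2 scale. These shares, 22% higher and 20.9% lower, are close to the 22.2% and 22% over all genes tested. The split was 33 higher and 13 lower with total-count scaling, 25 and 2 on the log2(FPKM + 1) scale, and 13 and 15 with DESeq2. The split over all genes tested also moved. It was 5473 and 2407 of 17089 with total-count scaling, 4663 and 1353 of 24516 on log2(FPKM + 1), and 2972 and 3051 of 17089 with DESeq2. Kinesin-2, the outward motor, had 3 of 5 genes higher (median 0.22): KIF3C at 71.7 ± 2.03 CPM in knockdown and 60.5 ± 2.55 CPM in control libraries (0.24, SE 0.04) and KIF3B at 63.2 ± 1.43 and 54.5 ± 1.80 CPM (0.22, SE 0.04), together with the adaptor KIFAP3 (0.19, SE 0.06). KIF3A, the partner of KIF3B, had 0.05 (SE 0.05). In the wider transition zone 7 of 18 rose and 11 were not called (median 0.10), led by TCTN2, at 14.5 ± 0.969 CPM in knockdown and 10.4 ± 0.517 CPM in control libraries (0.49, SE 0.07), and TMEM216 (0.41, SE 0.09), both parts of the tectonic complex with B9D1 and TMEM67.

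The remaining IFT-B subunits had 2 of 6 higher, TTC30A (0.24, SE 0.08) and TRAF3IP1 (0.17, SE 0.06), and HSPB11 lower. Here too the shares over all genes tested were 22.2% higher and 22% lower. TTC30A has a near-identical neighbour, TTC30B, that may share its reads. Further dynein 2 chains, several of which also serve cytoplasmic dynein, had 1 of 8 higher and 2 lower, DYNC2I2 (WDR34) at -0.22 (SE 0.04) and DYNLL1 at -0.13 (SE 0.02). BBIP1, the small BBSome subunit that was not among the 34, fell to 38.5 ± 2.57 CPM in knockdown libraries, against 45.2 ± 0.843 CPM in controls (-0.23, SE 0.04, edgeR's adjusted p = 1.3e-05), while the chaperonin-like MKKS and the BBSome regulator LZTFL1 were not called.

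Of 10 genes that restrain or dismantle cilia 6 fell and 4 were not called, where 22% of all genes tested were called lower and 44.2% in either direction. Their median on the log2 scale was -0.17. PLK1, a mitotic kinase that also promotes cilium disassembly, had 74.9, 71.9 and 76.1 CPM in knockdown libraries against 106, 103 and 109 CPM in controls (log2 fold change -0.51, SE 0.03). AURKA, the kinase that starts disassembly through HDAC6, had 80.9, 83.5 and 82.5 CPM in knockdown libraries against 112, 107 and 112 CPM in controls (-0.42, SE 0.03). CEP97, the partner of CCP110 in capping the mother centriole, changed by -0.34 (SE 0.07), whereas CCP110 had 0.03 (SE 0.07) and HDAC6 -0.01 (SE 0.04). PLK1, AURKA, TTK and NEK2 are also cell cycle genes that peak in mitosis, and the share of mitotic cells was not measured.

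For the counts that follow, the shares over all genes tested were 22.2% called higher and 22% lower. Basal body genes had 2 of 12 higher, among them the distal appendage gene CEP89 (0.24, SE 0.04), and 3 lower, among them CENPJ, a centriole elongation factor (-0.26, SE 0.06). Ciliary GTPases and lipidated-cargo carriers had 2 of 12 higher and 4 lower, with RAB3IP (Rabin8) at -0.20 (SE 0.06) and RAB8A, the GTPase it activates for ciliary membrane delivery, at -0.19 (SE 0.04). In the hedgehog pathway, which signals through the cilium, 11 of 12 genes were tested, 2 rose and 1 fell. GPR161, a ciliary receptor that TULP3 carries and that holds the pathway off, rose to 16.7 ± 1.63 CPM in knockdown libraries, against 12.6 ± 0.725 CPM in controls (0.42, SE 0.07). The transcription factor GLI2 fell to 11.8 ± 0.552 CPM in knockdown libraries, against 14.4 ± 0.448 CPM in controls (-0.29, SE 0.07). Of the pathway targets, GLI1 rose to 16.5 ± 0.765 CPM in knockdown libraries, against 14.1 ± 0.627 CPM in controls (0.22, SE 0.06), and PTCH1 was not called (-0.12, SE 0.12).

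**Figure D5:**
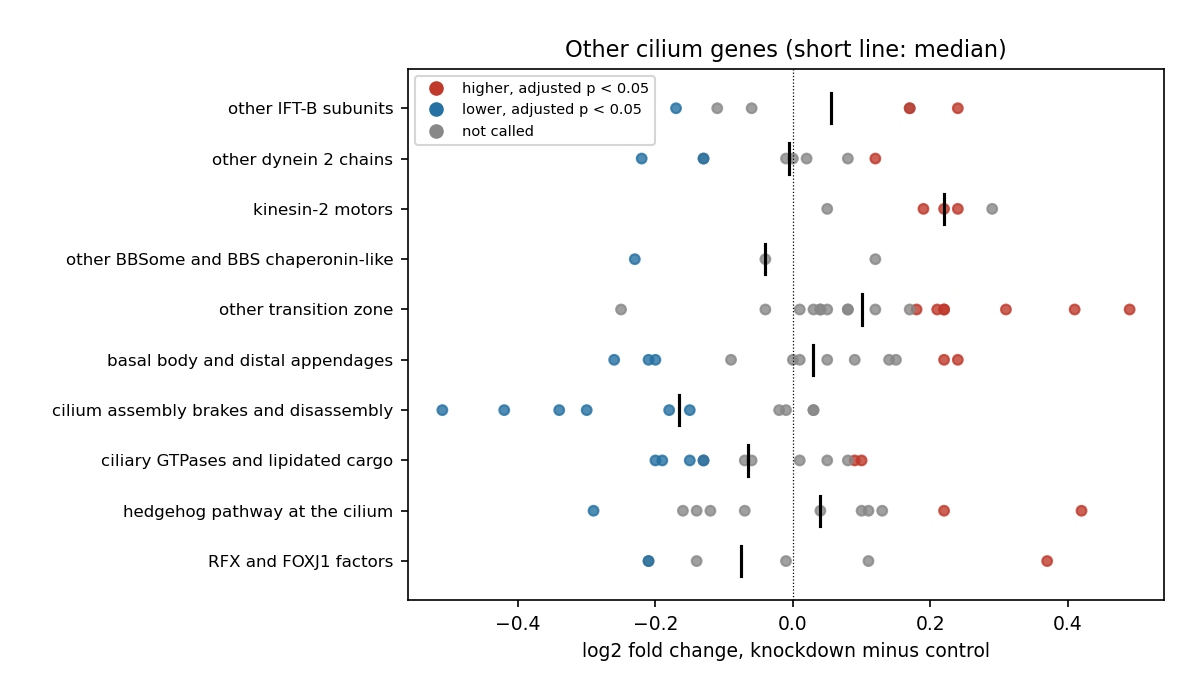
Log2 fold change (knockdown minus control, x axis) of each tested gene in the 10 lists of other cilium genes (y axis), coloured by the call of edgeR's quasi-likelihood test at an adjusted p under 0.05; short lines are list medians. Kinesin-2 motors have a median of 0.22 and the assembly brakes and disassembly genes -0.17.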

How the data were processed

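The authors deposited whole-number read counts per gene, and FPKM values (fragments per kilobase, scaled to library size) rounded to 2 decimals, with 1 column per library. The submitters' processing notes name HISAT2, DESeq2 and GRCh38 without a role; counting tool, annotation and strand setting were not found in the labels or files. Per the labels' protocols, mRNA was captured on beads for directional libraries. Columns were assigned by sample title.

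Genes passing filterByExpr (minimum count 10) were normalised by TMM. The test was the quasi-likelihood F test of edgeR 4.0.16 in R 4.3.3 (limma 3.58.1), Benjamini-Hochberg adjusted over 17089 genes, threshold 0.05. The common coefficient of variation between libraries, as the root of edgeR's common dispersion over all genes tested, was 2.61%. It leaves out counting noise, so single genes can vary more. Errors are SDs of CPM over 3 libraries and standard errors, taken as the log2 fold change divided by the root of F. Intervals cover this spread only. The code was tested on simulated counts.

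Members and lists were chosen with earlier results of these data known. The naming rule asked for values in every library for the 2 largest and 2 smallest called changes per complex, and in each further list for its 2 largest called changes at a mean log2 CPM of 1 or more. Values in every library for other members, and other named genes, were added after their values were seen.

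Alternatives were total-count, RLE and upper-quartile scaling; no filter, or 1 CPM in 3 libraries; DESeq2 1.42.0; limma-voom; limma-trend on FPKM with pseudocounts 1 and 0.1 (genes above 0 in 3 libraries); loess offsets (span 0.3) for exon length or GC content from GENCODE 29; the replicate number as a block; and each library left out.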

Additional observations from a re-analysis of the deposited data

How the results depend on the processing

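Of the 20 called transcripts, 9 kept their call under all 20 alternatives, all of them rises: IFT43, WDR19, IFT27, IFT52, IFT74, IFT20, IFT57, DYNC2LI1 and BBS2. RLE and upper-quartile scaling left the counts at 17 members higher and 3 lower. Total-count scaling raised the median of all genes tested by about 0.08 and gave 20 members higher and 1 lower, a member median of 0.22, medians of 0.27 for IFT-A, 0.25 for IFT-B, 0.02 for the BBSome and 0.27 for the transition zone, and 33 other cilium genes higher. The FPKM alternatives change unit, test and filter together. On log2(FPKM + 1) 15 members were higher and 0 lower in limma, where edgeR called 3 lower and DESeq2 2. At an unadjusted p under 0.05 the members lower were 1 in limma, 4 in edgeR and 2 in DESeq2. Medians on log2(FPKM + 1) were 0.13 for all members, 0.22 for IFT-B and 0.05 for the BBSome, with 2 other cilium genes lower. On log2(FPKM + 0.1) the counts were again 15 and 0 (1 unadjusted), with medians of 0.24 for all members, 0.28 for IFT-A, 0.27 for IFT-B, 0.05 for the BBSome and 0.27 for the transition zone and 2 other cilium genes lower. The length offset gave medians of 0.11 for all members, 0.12 for IFT-A and 0.14 for the transition zone, and the GC offset 0.13 for all members and -0.10 for the BBSome. The filter of 1 CPM removed BBS1 and gave 0.17 for all members and 0.00 for the BBSome. DESeq2 called 14 members higher, 2 lower and 13 other cilium genes higher. The calls over all genes tested were 2972 higher and 3051 lower with DESeq2, and 5473 and 2407 with total-count scaling. They were 4663 and 1353 on log2(FPKM + 1), and 4669 and 1358 on log2(FPKM + 0.1). Apart from the removal of BBS1, the cause of these shifts was not tested. With 1 library left out the member median ran from 0.11 to 0.15 and the members called from 16 to 20.

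Correlations of same-numbered deviations were 0.068, 0.037 and 0.146, and those of differently numbered libraries ran from -0.11 to 0.046. Whether same-numbered libraries shared a batch was not tested. With the replicate block 20 members were called, as without it. Both offsets combined with the block gave the same medians, 0.11, 0.12 and 0.14 with length and 0.13 and -0.10 with GC content. BBS1 and most of the multiciliated markers rest on few counts per library.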
